A study of Homo sapiens with 8 samples.

Results

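The 8 genes described here encode transcription factors that direct blood progenitors toward granulocytes and monocytes: SPI1, CEBPA, CEBPE, IRF8, GFI1, KLF4, RUNX1 and MYB. They were taken as a fixed list, matched by Entrez gene ID, and all 8 were among the 22653 entries listed in at least 1 of the 8 RNA-seq libraries. This list and the others below were chosen with earlier results of these data known. The libraries came from U937, a human cell line of monocytic character, in which the folate carrier gene SLC19A1 had been knocked out. Into these SLC19A1-/- cells a Flag-tagged cationic amino acid transporter under a doxycycline-inducible promoter had been placed, either SLC7A1 or SLC7A2. Each line was sampled without doxycycline and after 24 h with 1 µg/mL doxycycline, with 2 libraries numbered 1 and 2 in each of the 4 groups. All 4 groups thus share the SLC19A1 knockout and a transporter construct, and no line without a construct was analysed. The labels do not say whether a line is 1 clone, whether the replicates were separate cultures, or what a replicate number stands for, so p-values measure only the spread between these libraries, which may be technical.

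These factors act in sequence and against each other. RUNX1 and MYB are factors of stem cells and early progenitors; RUNX1 binds DNA with its partner CBFB, and MYB keeps progenitors dividing and is lowered as they mature. SPI1 (also called PU.1), an ETS-family factor, and CEBPA open the myeloid programme. CEBPE and GFI1 drive the granulocyte branch, CEBPE by switching on late granule genes and GFI1 as a repressor. IRF8, which pairs with SPI1 on DNA, and KLF4 drive the monocyte branch.

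Promoter windows are shown for the highest member, CEBPA, and for MYB and KLF4, whose level differed most by replicate number in the SLC7A1 line. Each holds the 250 bases before the annotated start, from RefSeq (GRCh38.p14), 5′ to 3′ on the gene's strand, with capitals marking any match to the motifs searched.
CEBPA, chr19:33302535-33302784, minus strand: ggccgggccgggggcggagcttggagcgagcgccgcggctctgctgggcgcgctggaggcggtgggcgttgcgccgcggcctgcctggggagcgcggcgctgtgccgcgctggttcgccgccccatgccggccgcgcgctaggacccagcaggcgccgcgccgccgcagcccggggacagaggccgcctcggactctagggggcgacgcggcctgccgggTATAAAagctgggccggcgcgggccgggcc
MYB, chr6:135181058-135181307, plus strand: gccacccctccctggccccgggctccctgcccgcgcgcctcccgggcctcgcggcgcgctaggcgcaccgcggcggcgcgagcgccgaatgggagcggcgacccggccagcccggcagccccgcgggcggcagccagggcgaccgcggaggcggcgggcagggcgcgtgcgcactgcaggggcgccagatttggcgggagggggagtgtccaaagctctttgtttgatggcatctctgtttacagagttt
KLF4, chr9:107489770-107490019, minus strand: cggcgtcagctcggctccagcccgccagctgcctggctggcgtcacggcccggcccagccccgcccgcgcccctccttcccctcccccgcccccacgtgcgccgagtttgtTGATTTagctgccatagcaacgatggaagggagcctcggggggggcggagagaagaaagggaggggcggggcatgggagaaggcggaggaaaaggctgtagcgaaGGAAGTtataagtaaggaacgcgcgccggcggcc

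Both strands were searched for 7 short motifs in the same window of 34786 annotated starts. These were the ETS motif GGAAGT (in 19.5% of windows), the C/EBP motif TTGCNNAA (9.05%), the RUNX motif TGTGGT (11.0%), the MYB motif TAACNG (17.7%), the IRF motif (GAAA, any 2 bases, GAAA; 3.02%), the GFI1 motif AAATCA (11.6%) and TATAAA (10.8%). None of the 7 motifs overlaps another's letters in these 3 windows. The CEBPA window held only TATAAA, 30 bases before the start. The KLF4 window held GGAAGT 34 bases before the start and AAATCA, read on the other strand, at 139 bases. The MYB window held none of the 7. All 3 windows were richer in G and C than the median window (58.0%), at 81.2% for CEBPA, 75.6% for MYB and 69.2% for KLF4. A window was matched for 7 of the 8 members. The IRF8 and RUNX1 windows, and some of those of GFI1, lie inside the gene rather than before its annotated start. They are not printed. A motif match describes letters only.

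Expected counts per library summed to between 17309132 and 18441833. A floor of 3 counts stood at 0.163 to 0.173 CPM (counts scaled to each library's total). SLC19A1 transcript was present in all 8 libraries (120 to 163 CPM), and unedited cells to set it against were not analysed here. The 11 myelomonocytic markers summed to 1832 to 4483 TPM (a level scaled for transcript length and library), carried mainly by ELANE, PRTN3 and AZU1. The myeloid surface marker CD33 stood at 85.3 TPM and the lysosomal marker CD68 at 60.2 TPM on average, while the monocyte markers CD14 and CSF1R averaged 0.11 and 0.20 TPM, MPO 0.32 TPM and ITGAM 1.71 TPM. Summed T-cell markers reached at most 0.20 TPM and erythroid and megakaryocyte markers 0.14 TPM. On the first principal component, which held 27.4% of the variance, both SLC7A2-line libraries numbered 2 stood apart from the other 6, at 55.3 without and 68.1 with doxycycline against −52.7 to −3.67.

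All 8 factors were transcribed in every library, at mean levels that spanned from 283 to 1.78 TPM. CEBPA, an intronless gene (chr19:33299934-33302534), was the highest at 283 ± 35.7 TPM (SD over all 8 libraries, as for each level in this paragraph), above 96.9% of the 15340 entries with a gene symbol. SPI1 (chr11:47354860-47378547) followed at 152 ± 14.2 TPM and MYB (chr6:135181308-135219172) at 65.3 ± 16.8 TPM. By TPM the U937 libraries thus held the 2 factors of the myeloid programme at the top, and beneath them a progenitor factor. By mean CPM, which is not scaled for transcript length, CEBPA stayed highest, but SPI1 (145) stood below MYB (168) and GFI1 (164). On that scale RUNX1 (58.5) stood above IRF8 (43.4) and CEBPE (18.5). GFI1 (chr1:92473043-92486925) stood at 46.1 ± 3.48 TPM and CEBPE (chr14:23117306-23119255) at 23.9 ± 3.53 TPM. IRF8 (chr16:85899162-85922609) stood at 21.1 ± 9.43 TPM, and RUNX1 (chr21:34787801-35049302) at 13.2 ± 1.65 TPM. Of these 4 factors, IRF8 had the largest spread. KLF4 (chr9:107484852-107489769) was the lowest at 1.78 ± 0.752 TPM, on 41 to 128 counts per library, still above 39.4% of entries with a symbol.

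Not every step in the order by TPM exceeded the spread between libraries. CEBPA did not overlap SPI1, whose range was 139 to 174 TPM, nor did SPI1 overlap MYB. MYB (41.6 to 85.3 TPM) overlapped GFI1 (39.5 to 50.9 TPM). GFI1 lay above every CEBPE value (19.4 to 30.3 TPM). IRF8, at 5.87 to 31.5 TPM, overlapped both CEBPE and RUNX1 (10.9 to 15.3 TPM). KLF4, at 0.98 to 3.12 TPM, lay below all others. The 2 monocyte factors thus differed in level without overlap. Coordinates are those of RefSeq on GRCh38.p14. RUNX1 overlaps the lncRNA genes RUNX1-AS1 and RUNX1-IT1, and MYB overlaps LOC105378011; none of these 3 was listed in the files, and no source used here says whether counting used strand.

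**Figure D1:**
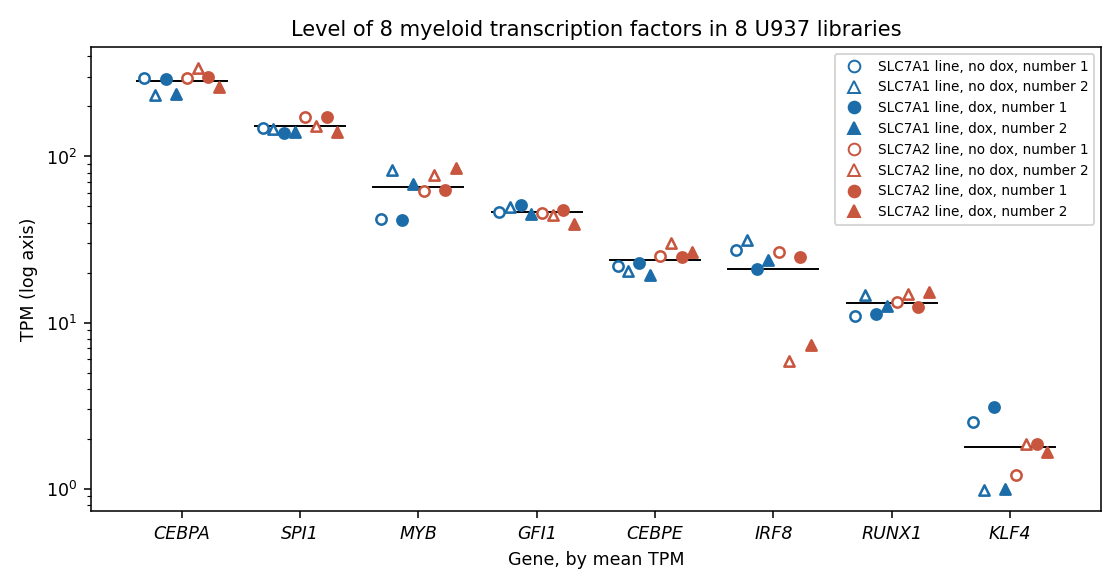
Level of each factor (TPM, log axis) in each library, ordered by mean level (bar); colour gives the line, fill gives doxycycline and shape the replicate number. CEBPA and SPI1 lie highest, KLF4 lowest, and the 2 IRF8 points at 5.87 and 7.35 TPM are the SLC7A2-line libraries numbered 2.

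The factors also differed in how steady they were. On a log2 CPM scale normalised for composition, the gap between highest and lowest library was 2.51 for IRF8. Of 2030 symbol-bearing genes of like mean level (within 0.5), 99.8% had a smaller gap. The gap was 1.64 for KLF4 (80.2% of like-level genes smaller) and 0.98 for MYB (92.4% smaller). GFI1 (0.59), CEBPA (0.54), SPI1 (0.53), CEBPE (0.47) and RUNX1 (0.45) were steadier. GFI1, CEBPA and SPI1 lay above the medians of their like-level genes (0.46, 0.49 and 0.46). CEBPE and RUNX1 lay below theirs (0.69 and 0.53). For KLF4 that median was 1.05. Fold between highest and lowest TPM was 5.37 for IRF8, 3.18 for KLF4 and 2.05 for MYB. These are descriptions over 8 libraries that share 2 lines and 2 numbers.

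Doxycycline, which switches the transporter on, moved none of the 8 factors past the test. SLC7A1-Flag reached 845 and 367 CPM in the 2 SLC7A1 libraries with doxycycline, and SLC7A2-Flag reached 264 and 4947 CPM in the 2 SLC7A2 libraries. With edgeR's quasi-likelihood test on all 17503 entries that passed a filter on low counts, 0 of 8 members were called at an adjusted p under 0.05 for doxycycline across both lines, where 0.0% of all entries were called. Within the SLC7A1 line, within the SLC7A2 line and for the difference between those effects, again 0 of 8 members and 0.0% of entries were called. SLC7A1-Flag and SLC7A2-Flag, at most 0.26 and 9.645 CPM without doxycycline in their own lines, were thus not called either. The test missed these large inductions, so its lack of calls cannot show that the members did not respond. At an unadjusted p under 0.05, edgeR had 261 entries across lines, 222 in the SLC7A1 line, 224 in the SLC7A2 line and 222 for the difference, and none was a member. DESeq2 called 1, 9, 10 and 20 entries in those 4 comparisons, again no member.

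SPI1 differed by −0.11 ± 0.13 (log2 fold change ± SE, doxycycline minus none across lines), CEBPA by −0.14 ± 0.14 and CEBPE by −0.10 ± 0.12. RUNX1 differed by −0.06 ± 0.11, GFI1 by −0.06 ± 0.11 and MYB by −0.08 ± 0.22. For IRF8 (−0.24 ± 0.50) and KLF4 (0.15 ± 0.42) the errors were several times wider than for SPI1 or CEBPA. A change well above that of SPI1 could thus have gone undetected. The fit had no term for replicate number, so differences by number entered these errors. The median over the 8 was −0.09 beside 0.01 over all entries, with 7 members below 0, where 51.7% of all entries were above 0. In pairs of libraries of the same line and number, SPI1, CEBPA, CEBPE, IRF8, RUNX1 and MYB were each lower with doxycycline in 3 of 4 pairs. GFI1 was lower in 2 of 4 and KLF4 in 1 of 4. IRF8 differed (log2 CPM) by −0.49 and −0.32 in the SLC7A1 line's numbers 1 and 2, and by −0.14 and 0.22 in the SLC7A2 line's. CEBPA (−0.49), CEBPE (−0.31), GFI1 (−0.30) and SPI1 (−0.26) fell most in the SLC7A2 line's number 2, where IRF8 and MYB were higher. In the SLC7A1 line's number 2, SPI1, CEBPA and CEBPE were higher, by 0.03, 0.11 and 0.01.

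Between the 2 lines, too, no factor passed the test. For the SLC7A2 line against the SLC7A1 line, edgeR called 0 of 8 members and 0.0% of all entries (2242 entries at an unadjusted p under 0.05, none a member), and DESeq2 called 349 entries, none a member. The largest difference was that of IRF8, −0.76 ± 0.51 (adjusted p = 0.531). Leaving out both SLC7A2-line libraries numbered 2 brought it to −0.06 (adjusted p = 0.95). GFI1 had the lowest unadjusted p, 0.0591, at −0.24 ± 0.11. CEBPE differed by 0.19 ± 0.12, MYB by 0.15, RUNX1 by 0.14, CEBPA by 0.03, SPI1 by 0.02 and KLF4 by −0.35.

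**Figure D2:**
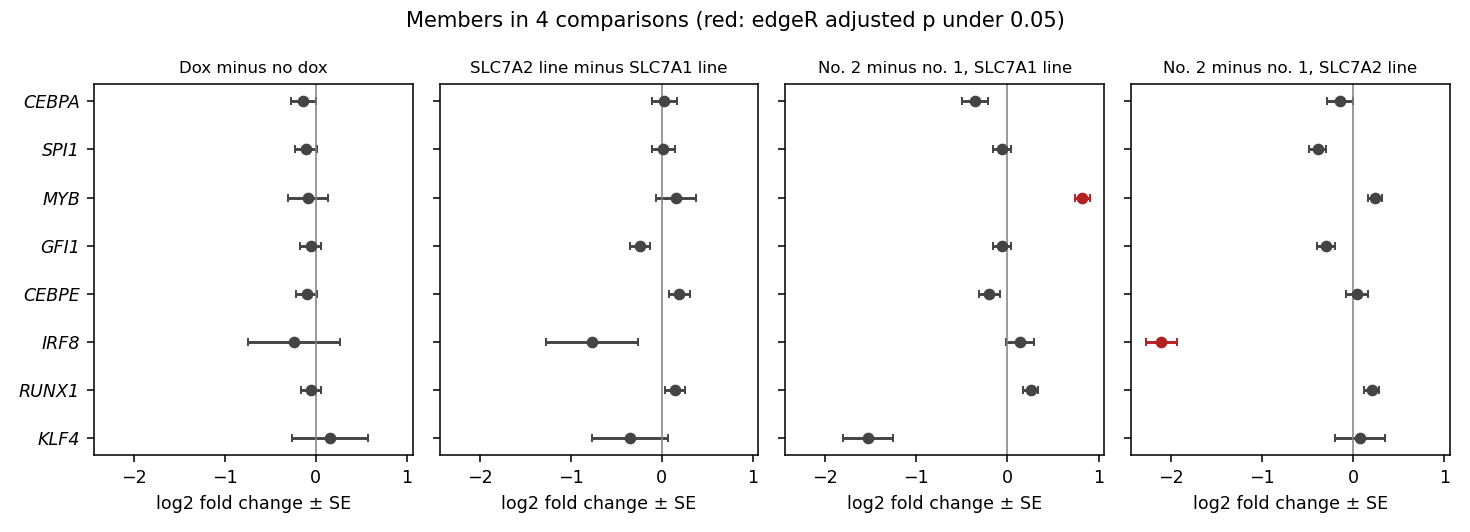
Log2 fold change of each factor with its SE (edgeR) for doxycycline, for line and for number 2 minus number 1 within each line; red marks an adjusted p under 0.05. Only MYB in the SLC7A1 line and IRF8 in the SLC7A2 line are red, and error bars of IRF8 and KLF4 are widest for doxycycline and line.

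Calls came with replicate number: IRF8 and MYB passed a test there. In every comparison of number, within a line, over both lines or between them, the 2 replicates were alike. They were the libraries with and without doxycycline of 1 line and number. They may share a culture, in which case these p-values are too small as a statement about cultures. In the SLC7A2 line IRF8 was lower in number 2, and in the SLC7A1 line MYB was higher in number 2.

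IRF8, the monocyte and dendritic cell factor, stood at 26.72 TPM without and 24.91 TPM with doxycycline in the SLC7A2 line's number 1. In number 2 it stood at 5.87 TPM without and 7.35 TPM with doxycycline. In the SLC7A1 line its 4 values were 27.49 and 21.15 TPM for number 1 and 31.51 and 23.70 TPM for number 2. Both SLC7A2-line libraries numbered 2 thus lay below all other 6, with no overlap. The share of all entries split in this way was not counted. The mean of number 1 in the SLC7A2 line was 3.91-fold that of number 2. IRF8 fell by 2.11 ± 0.17 on the log2 scale (edgeR adjusted p = 0.00954), the 1 member of 8 called there, where 10.9% of all entries were called (6.8% lower, 4.14% higher). In the SLC7A1 line the number difference of IRF8 was 0.14 ± 0.15 (adjusted p = 0.633). The difference between the lines' number effects was −2.25 ± 0.23 (adjusted p = 0.0209), again the 1 member of 8, against 2.86% of entries (1.46% below 0 and 1.4% above).

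Leaving out 1 library at a time can leave a number with a lone library, which is then assumed to vary like the others. It kept IRF8's log2 fold change in the SLC7A2 line between −2.40 and −1.86, with adjusted p from 0.0259 to 0.136. The call was lost without number 1 of the SLC7A2 line, either without (0.091) or with doxycycline (0.14), and without its number 2 with doxycycline (0.052). Without 1 library at a time, the difference between lines was called in 1 of 8 fits, the 1 without the SLC7A2 line's number 2 with doxycycline, at −2.54 to −2.00 and adjusted p 0.0401 to 0.143. The same 2 libraries stood apart on the first principal component. Summed fibroblast markers (5 of 5 listed) were 14.69 TPM in the SLC7A2 line's number 2 without doxycycline, led by COL1A1 at 5.47 TPM, and 1.39 TPM in its number 2 with doxycycline, against 0.64 to 2.01 TPM in the other 6. Number 2 of that line also held more SLC7A2-Flag than number 1, with doxycycline (4947 against 264 CPM) and without (9.645 against 0.563 CPM). The part of either in the result was not tested. In bulk RNA, fewer cells expressing a factor and less of its RNA per cell cannot be told apart.

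MYB, the progenitor factor, stood at 42.15 TPM without and 41.57 TPM with doxycycline in the SLC7A1 line's number 1. In number 2 it stood at 82.94 and 68.29 TPM. The SLC7A2 line had 61.98 and 62.57 TPM in number 1 and 77.44 and 85.27 TPM in number 2. In both lines every number 2 value exceeded every number 1 value, and the share of all entries that did so was not counted. MYB rose by 0.82 ± 0.08 in the SLC7A1 line (adjusted p = 0.0204), from a mean of 41.9 to 75.6 TPM or 1.81-fold, the 1 member of 8 called, where 1.77% of entries were called (0.611% higher, 1.16% lower). The SLC7A2 line's difference was 0.24 ± 0.08 (adjusted p = 0.103), or 1.31-fold in mean TPM, though 1 of 14 alternative settings called it. The difference between those effects, −0.58 ± 0.11, did not pass (adjusted p = 0.0540), though DESeq2 called it (1.1e-05) among 11.5% of entries. Leaving out 1 library at a time, MYB in the SLC7A1 line stayed at 0.75 to 0.89, and the call held in 2 of 8 fits (adjusted p 0.0253 to 0.166): those without 1 of the SLC7A2-line libraries numbered 2. Each of the other 6 omissions ended it, as did 4 line by doxycycline group means as the design (adjusted p = 0.059).

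KLF4, the other monocyte factor, moved opposite to MYB in the same libraries without passing the main test. It stood at 2.53 TPM without and 3.12 TPM with doxycycline in the SLC7A1 line's number 1, and at 0.98 and 1.00 TPM in number 2. Across the SLC7A2 line it ran from 1.21 to 1.86 TPM. Its 2 highest and 2 lowest values were thus both in the SLC7A1 line, split by number. The log2 difference was −1.53 ± 0.28 (adjusted p = 0.0578), a mean 2.85-fold higher in number 1. DESeq2 (adjusted p = 0.00156), which called 12.1% of entries there, and limma on log2(TPM + 1) (0.043) did call it. The SLC7A2 line's difference was 0.07 ± 0.28. The difference between those effects, 1.60 ± 0.39, did not pass (edgeR adjusted p = 0.0888), though 1 of 14 alternative settings called it.

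**Figure D3:**
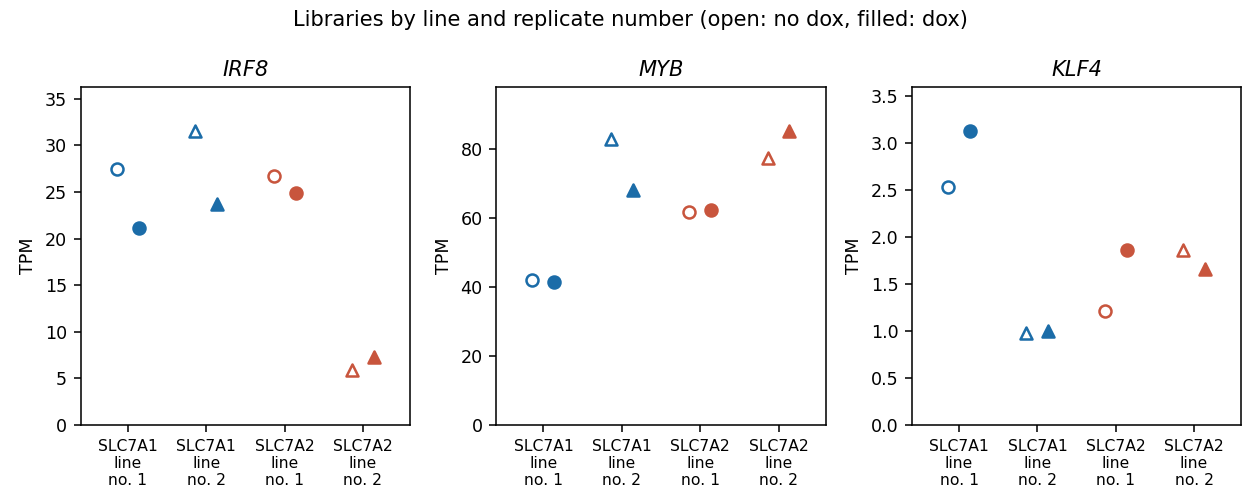
IRF8, MYB and KLF4 (TPM, linear axes from 0) by line and replicate number; open points are without and filled points with doxycycline. IRF8 is at 5.87 and 7.35 TPM in number 2 of the SLC7A2 line, and MYB is lowest and KLF4 highest in number 1 of the SLC7A1 line.

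The other members varied less by number. SPI1, at 172.43 and 173.97 TPM in number 1 of the SLC7A2 line and 153.35 and 139.96 TPM in number 2, differed there by −0.39 ± 0.09 (adjusted p = 0.0504). DESeq2 (0.00075, with 21.1% of entries called), limma (0.040) and edgeR with library totals alone (0.047) put it past the threshold. In the SLC7A1 line SPI1 lay between 139 and 149 TPM with a difference of −0.06. CEBPA was at 298.63 and 294.25 TPM in number 1 of the SLC7A1 line and 234.69 and 237.03 TPM in number 2. That difference, −0.36 ± 0.14, had an adjusted p of 0.209. CEBPE differed by −0.20 in the SLC7A1 line and 0.04 in the SLC7A2 line, and GFI1 by −0.06 and −0.30 ± 0.10. DESeq2 (adjusted p = 0.019) and edgeR without the SLC7A2 line's number 2 library without doxycycline (−0.45, adjusted p = 0.046) put GFI1 past the threshold in the SLC7A2 line; the latter leaves number 2 there with 1 library, assumed to vary like the others. RUNX1 was higher in number 2 in both lines, by 0.26 ± 0.08 (adjusted p = 0.149) and 0.20 ± 0.08 (adjusted p = 0.158), neither past the threshold.

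With both lines together, number 2 against number 1 gave 2 of 8 members called, where 11.4% of all entries were called (4.82% higher, 6.56% lower). MYB rose by 0.53 ± 0.06 (adjusted p = 0.0149) and IRF8 fell by 0.98 ± 0.11 (adjusted p = 0.0170), though IRF8 was lower in number 2 in the SLC7A2 line and not in the SLC7A1 line. Each call held in 3 of 8 fits that left out 1 library: those without number 2 with doxycycline of either line and without number 2 without doxycycline of the SLC7A2 line. Without that last library CEBPA (−0.38, adjusted p = 0.032) and GFI1 (−0.26, 0.040) were also called, and with library totals alone RUNX1 was (0.26, 0.048). DESeq2, which called 22.2% of entries, also called SPI1, CEBPA, KLF4 and RUNX1, all 4 in the same direction as edgeR's values. The median over the members was −0.20 beside −0.00 over all entries. RUNX1 (0.23 ± 0.06, adjusted p = 0.0551), KLF4 (−0.73 ± 0.20, 0.0626) and SPI1 (−0.22 ± 0.07, 0.0769) came near the threshold.

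Genes with the most similar profile over the 8 libraries were found among 10312 expressed genes by the root mean square difference of centred log2 CPM. For IRF8 these were LRRK1 (0.17) and LRIG2 (0.27). LRRK1 was at 2.67 and 2.97 normalised CPM in number 2 of the SLC7A2 line and at 12.7 to 14.4 in the other 6 libraries. For KLF4 they were INKA2 (0.20) and NFKBID (0.22); NFKBID was at 22.8 and 22.4 CPM in number 1 of the SLC7A1 line and 7.51 to 11.0 elsewhere. For MYB they were LMLN (0.07) and SPART (0.09), SPART at 36.7 and 40.1 CPM in number 1 of the SLC7A1 line and 51.9 to 71.8 elsewhere.

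The factors known to work beside the members were present for most branches. Of 20 other stem and progenitor factors, LYL1 (160 TPM on average) and MYC (156 TPM) were near SPI1 in level, followed by NFE2 (60.4 TPM) and LMO2 (40.7 TPM), and MYCN was listed in no library (an unlisted gene was taken as 0). Of 20 other monocyte and macrophage factors, CEBPB (44.7 TPM), ID2 (30.9 TPM), IRF5 (29.5 TPM) and PPARG (22.2 TPM) were highest, and MAF and SPIC were listed in none. In the granulocyte and nuclear receptor list of 10, DDIT3 (38.9 TPM), CEBPG (32.3 TPM), RARA (24.0 TPM) and ELF1 (15.6 TPM) led and IKZF2 was listed in none. Among 20 partners and cofactors, HDAC1 (184 TPM) and HDAC2 (81.7 TPM), the histone demethylase KDM1A (107 TPM), a corepressor of GFI1, and RUNX3 (26.4 TPM) led, and RUNX1T1 was listed in none. Lymphoid factors were all under 1 TPM (GATA3 0.51, PAX5 0.49, FOXP3 0.47 and EBF1 0.36 TPM on average).

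None of the listed partners, other factors or targets passed for doxycycline or line. Because the lists were chosen with earlier results of these data known, their shares called, here and below, are descriptions and no test of a list. For number in the SLC7A1 line, 4 of 16 tested monocyte factors fell and none rose (list median −0.43 beside −0.00 over all entries, of which 1.16% fell and 0.611% rose). The immediate early gene EGR1 fell by 2.29, ID2 by 1.53, CEBPB by 1.23 and NR4A1 by 1.03 on the log2 scale (adjusted p 0.0235, 0.0267, 0.00833 and 0.0274). These 4 were high in the same 2 libraries in which KLF4 was high and MYB low. CEBPB stood at 58.23 and 71.52 TPM there and at 26.43 and 29.68 TPM in number 2. The stress-induced C/EBP relative DDIT3 fell by 1.75 (adjusted p = 0.00796), from 72.69 and 83.41 TPM to 21.13 and 25.47 TPM. RARA, HHEX and the ETS factor ETS2 also fell, by 0.51, 0.60 and 0.61 (adjusted p 0.0385, 0.0476 and 0.0274). In all, 2 of 9 granulocyte factors, 1 of 16 stem factors, 1 of 17 partners and 0 of 22 targets passed in that line, none of them higher. All 8 of these genes lost the call in each of 6 fits that left out 1 library; 8 and 7 of them kept it without an SLC7A2-line library numbered 2. No direction changed.

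In the SLC7A2 line, where IRF8 was low in number 2, PPARG fell by 1.16 (adjusted p = 0.00865), EGR1 by 1.70 (0.0203) and IRF5 by 0.40 (0.0422), while CEBPB rose by 0.45 (0.0242). Thus 3 of 16 monocyte factors fell and 1 rose, with a list median of 0.04, where 6.8% of all entries fell and 4.14% rose. Of 16 stem and progenitor factors, 3 rose and none fell: HHEX by 0.68 (0.0194), IKZF1 by 0.65 (0.0268) and SOX4 by 0.58 (0.0408). Of 17 partners, 4 rose and none fell (list median 0.35 beside 0.01 over all entries). These were CBFB, the RUNX1 partner, by 0.75 (0.0183), ETS1 by 0.65 (0.0208), HDAC2 by 0.54 (0.0204), and TRIB2, which promotes degradation of CEBPA protein, by 1.49 (0.0312). Counting the targets below and the marker CD79A, 18 listed genes passed in this line. Without 1 SLC7A1-line library 12 to 15 of the 18 kept the call, without the SLC7A2 line's number 2 without doxycycline 10 did, and without any other library of the SLC7A2 line none did, with no change of direction.

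Over both lines together, 22 of 93 tested genes of the lists other than the members passed for number (15 lower, 7 higher), beside 11.4% of all entries, among them 3 that passed in neither line alone. These were EGR2, which fell by 2.14 from levels of at most 1.22 TPM (adjusted p = 0.0426), LYL1, which fell by 0.39 (0.0357), and the HOX cofactor MEIS1, which rose by 0.38 (0.0358). Leaving out 1 library left between 0 and 18 of the 22.

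**Figure D4:**
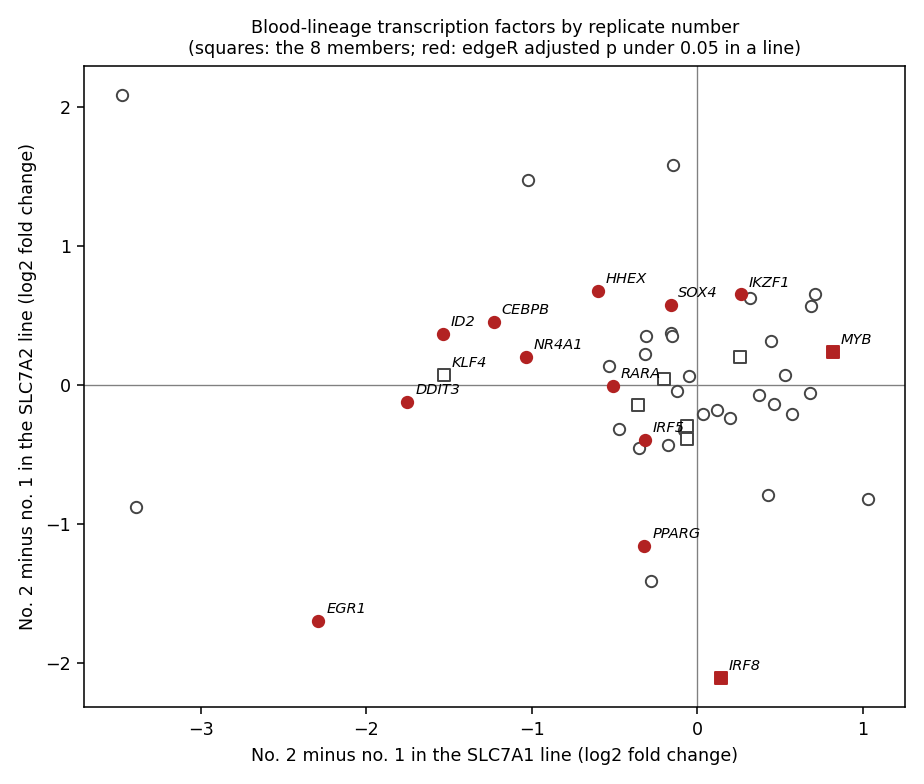
Log2 difference of number 2 minus number 1 in the SLC7A1 line (x) and the SLC7A2 line (y) for 49 transcription factors of the fixed lists, the 8 members as squares; red marks the 13 with an edgeR adjusted p under 0.05 in a line. IRF8 lies at the bottom near x = 0, MYB at the right, and KLF4 at the left among factors such as ID2 and DDIT3.

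Genes that textbooks place downstream of these factors were unevenly expressed. Genes of the neutrophil serine protease family of primary granules, known targets of CEBPA, SPI1 and MYB, were among the highest. CTSG stood at 5069 to 12190 TPM and ELANE at 541 to 1738 TPM. PRTN3 averaged 986 TPM and AZU1 812 TPM. Myeloperoxidase, MPO, a granule gene of the same stage, lay between 0.21 and 0.47 TPM, and the SPI1 target CSF1R did not exceed 0.53 TPM. Late granule genes, targets of CEBPE, ranged from near 0 for LTF and LCN2 (at most 0.16 and 0.13 TPM) to 2.95 to 11.02 TPM for CAMP and 2.61 to 17.34 TPM for MMP9. In the SLC7A2 line 5 of 22 tested targets fell in number 2 and 1 rose, beside 6.8% and 4.14% of all entries. ELANE fell by 1.48 (adjusted p = 0.0145), PRTN3 by 1.25 (0.0208), AZU1 by 1.11 (0.0155), the G-CSF receptor CSF3R by 0.85 (0.0126) and CTSG by 0.73 (0.0488). MMP9 rose by 1.54 (0.0115). ELANE stood at 1600 and 1573 TPM in number 1 of that line and at 733 and 541 TPM in number 2. In those 2 libraries CEBPA stood at 339 and 261 TPM and SPI1 at 153 and 140 TPM, against 298 and 300 TPM and 172 and 174 TPM in number 1, neither called, and MYB at 77.4 and 85.3 TPM. The list median there was −0.06 beside 0.01 over all entries.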

How the data were processed

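RNA-seq of poly(A) RNA from 8 U937 libraries was analysed. Per the submitters' processing notes, the hg38 build, the aligners HISAT and Bowtie2 (2.3.4.3), RSEM (1.3.1) and DESeq2 (1.4.5) are named, without settings or order. The authors deposited RSEM expected counts, TPM and FPKM per gene; FPKM was not used. An entry missing from a library was taken as 0. Gene symbols came from Entrez IDs by RefSeq (15340 of 22653 entries). Members and lists were chosen with earlier results of these data known. Expected counts were rounded. Entries passing edgeR's filterByExpr (minimum count 10, minimum total 15; 17503 entries) were fitted over all 8 libraries with edgeR 4.0.16 quasi-likelihood tests and TMM scaling, in R 4.3.3. Benjamini-Hochberg adjustment ran over all entries of each comparison, with a threshold of 0.05. Of the 17503, 5927 were assembled loci without a symbol. Alternatives used DESeq2 1.42.0, limma 3.58.1 on log2(TPM + 1), other scaling, no filter and left-out libraries. Scripts were tested on simulated data. Genes named beyond the members were those called in a comparison, the 4 highest of each list and those listed in no library; MPO, CSF1R, CD14, ITGAM, LTF, LCN2 and CAMP were named after their values were seen. Depth is given in the results.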

Additional observations from a re-analysis of the deposited data

Results flagged for a closer look

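A test of the difference between the 2 lines' replicate-number effects (edgeR, adjusted over all entries) marked 10 of the listed genes. They were 1 of the 8 members and 9 of the 93 other listed genes tested, where 2.86% of all entries were marked. Each is given as a log2 difference, SLC7A2 line minus SLC7A1 line. IRF8 was at −2.25, PPARG at −0.84 and the protease gene PRTN3 at −1.52, lower in number 2 of the SLC7A2 line. CEBPB was at 1.68, DDIT3 at 1.63, ID2 at 1.90, HHEX at 1.27, NR4A1 at 1.23, JUN at 1.23 and ETS2 at 0.78. Of these 10, IRF8 is the 1 member of the 8 factors. Of the other 9, CEBPB alone kept its call when 1 library was left out, in 2 of 8 fits, and none changed sign. The groups of 2 libraries were too small for a search for single libraries far from the rest.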

How the results depend on the processing

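Each comparison kept its verdict on the members under RLE scaling and no filter. The counts of all entries called moved with the tool. Doxycycline in the SLC7A1 line gave 2 (no filter), 2 (limma) and 9 (DESeq2). The SLC7A2 line gave 2 (limma) and 10 (DESeq2). The difference of those effects gave 3 (limma) and 20 (DESeq2). Doxycycline across lines gave 2 (no filter), 1 (DESeq2) and 1 without both SLC7A2-line libraries numbered 2. Line gave 3 (no filter), 1 (without both) and 349 (DESeq2). With 4 group means as the design, number gave 358, in the SLC7A1 line 9, in the SLC7A2 line 573 and their difference 13. DESeq2 gave 3885, 2126, 3686 and 2012 for these. Number could not be compared without both SLC7A2-line libraries numbered 2.

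A replicate block gave, with edgeR, 2, 1 and 3 entries for doxycycline in the SLC7A1 line, in the SLC7A2 line and across lines, and 256 for line; with DESeq2 it gave 45 and 26 for the lines, 21 for their difference and 106 across lines. Same-numbered libraries deviated together within a line (r = 0.70 and 0.77 over 4933 genes) but less so between lines (0.04 to 0.44), so pairing across lines was not shown, and no member was called for doxycycline or line under the block.

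Leaving out 1 library at a time gave 0 entries in each fit for doxycycline in the SLC7A1 line, 0 to 1 in the SLC7A2 line, 0 to 1 for line, 0 to 2438 for number, 1 to 337 and 0 to 1541 for number in the SLC7A1 and SLC7A2 lines, and 1 to 26 for their difference. The split of higher and lower number calls moved with the tool and, with library totals alone (added after seeing the data), with scaling. It was 843 and 1149 in the main fit, 873 and 1091 with RLE scaling and 1366 and 759 with limma. In the SLC7A1 line it was 107 and 203 against 185 and 222 (limma) and 1102 and 1024 (DESeq2). In the SLC7A2 line it was 724 and 1191 against 960 and 989 (totals) and 1620 and 816 (limma). For the difference it was 245 and 255 against 309 and 222 (totals) and 460 and 232 (limma). The median of all entries shifted by under 0.1.

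Log2 values of members that changed sign were small or uncalled. GFI1 for doxycycline was 0.0060 without both SLC7A2-line libraries numbered 2, CEBPE for number 0.015 with limma, and RUNX1 for the difference of number effects 0.013 with totals alone. Over single left-out libraries, doxycycline ran from −0.75 to 0.26 for IRF8, −0.15 to 0.036 for GFI1, −0.22 to 0.51 for KLF4, −0.12 to 0.015 for RUNX1 and −0.24 to 0.12 for MYB. Within a line these ranges were wider, as for IRF8 in the SLC7A2 line (−1.34 to 1.49) and, in the SLC7A1 line, KLF4 (−0.82 to 1.10) and MYB (−0.62 to 0.32), with no call. Line ran from −0.087 to 0.11 for SPI1, −0.081 to 0.12 for CEBPA, −0.59 to 0.026 for KLF4 and −0.0011 to 0.36 for MYB. Number in the SLC7A1 line ran from −0.16 to 0.039 for SPI1, −0.040 to 0.35 for IRF8 and −0.12 to 0.0032 for GFI1. In the SLC7A2 line it ran from −0.39 to 0.076 for CEBPA, −0.10 to 0.18 for CEBPE and −0.22 to 0.36 for KLF4. The difference ran from −0.031 to 0.44 for CEBPA and −0.14 to 0.024 for RUNX1. The cause of these shifts was not tested. At 41 to 128 counts, KLF4 is the member whose precision depth limits most.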

Other observations

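The B-cell receptor component CD79A was at 20.57 to 34.05 TPM, near CEBPE in level, while its partner CD79B did not exceed 0.20 TPM and the B-cell marker MS4A1 was listed in no library. The B-cell factors EBF1 and PAX5, known to switch CD79A on, averaged 0.36 and 0.49 TPM. CD79A was lower in number 2 of the SLC7A2 line, by −0.46 ± 0.10 on the log2 scale (edgeR adjusted p = 0.0388), a call that held in 0 of 8 fits that left out 1 library.

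Erythroid factors were also uneven. KLF1, the red cell factor, averaged 3.84 TPM, above KLF4, while GATA1 was listed in no library, and BCL11A averaged 6.84 TPM, ZFPM1 2.14 TPM and GFI1B 0.48 TPM. The globin genes HBB and HBA1 were listed in none either. In all 5 tested factors of that list, which also holds IKZF4 (0.35 TPM), number 2 minus number 1 in the SLC7A1 line was below 0 (median −0.29). None was past the threshold, 49.8% of all entries were above 0, and GFI1B had only 4 to 24 counts per library.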
